A study of Bos taurus with 23 samples.

Results

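The genes described here were defined by a rule as raised by interferon tau but not by a conceptus in explants of bovine endometrium, and they number 85 of the 18897 genes in the count table. A gene entered with a mean level of at least 1 CPM (a read count scaled to the library total) in explants kept in medium, a mean level with interferon tau at least 1.3 times that, and a higher level with interferon tau in at least 5 of 6 pairs of explants. Its mean level with each of both kinds of conceptus also had to be no more than 15% above the level in medium. CPM is a gene's read count as a share of the total count of its library, scaled to a total of 1000000. The levels in medium, with interferon tau and with a conceptus therefore chose the genes, and values on those contrasts are given as a description. They are called IFNT-only genes below, which is the name of the rule and not a result.

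In ruminants the trophectoderm of the conceptus secretes interferon tau, a type I interferon, before attachment. It binds the type I interferon receptor on endometrial cells, activates JAK-STAT signalling and induces interferon-stimulated genes such as the antiviral MX, OAS and ISG15 families. By restraining the endometrial release of luteolytic prostaglandin it preserves the corpus luteum, which is how pregnancy is recognised in cattle. A conceptus releases interferon tau together with prostaglandins, steroids and many proteins.

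Pieces of intercaruncular endometrium, the glandular tissue between the attachment sites, were taken from mid-luteal uteri, cultured for 6 h and sequenced as 23 libraries. Control explants received RPMI medium alone (n = 6), and IFNT explants received 100 ng/mL of recombinant ovine interferon tau in that medium (n = 6). AI explants shared the medium with a Day 15 conceptus that had grown from a blastocyst of in vivo origin (n = 4, of which 3 were female and 1 male, 21 to 31 mm long). IVF explants shared it with a Day 15 conceptus grown from a blastocyst produced in vitro (n = 7, of which 2 were female and 5 male, 8 to 54 mm long). All 4 AI titles carry the same code and the 7 IVF titles carry 5 codes, whose meaning the labels do not give, and whether conceptuses share a source was not tested. The titles also number the explants with a U, and libraries with the same number deviated together, so the numbers are called uteri. Uteri 1 to 4 gave a library of every kind, uteri 5 and 10 lacked AI, and uterus 7 gave an IVF library only. The sample descriptions number the Control and IFNT libraries 1 to 12 and the conceptus libraries 17 to 34. If these numbers mark a processing order, it cannot be told apart from the presence of a conceptus.

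Total counts lay between 19461678 and 36730378 per library. The table names genes by Ensembl identifier alone, and none could be paired with a symbol here, so neither the roles of the IFNT-only genes nor the cell-type markers of the tissue could be examined. In these bulk explants a smaller share of a cell type and less RNA per cell cannot be told apart. Scaling by the plain total also moved all genes: among the 13451 genes with a Control mean of at least 1 CPM, the median ratio to Control was 0.943 with IFNT, 0.923 with AI and 0.916 with IVF. Under TMM scaling (trimmed mean of M values), the median log2 fold change of all tested genes was -0.01 for IFNT and 0.01 for the averaged conceptus. The limit of 15% above Control was thus looser, measured against the typical gene, than its number says.

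The IFNT-only genes were a small and weakly raised part of what interferon tau raised. Of the 13451 genes, 806 met the conditions on Control and IFNT, and 567 of them exceeded the conceptus limit with both AI and IVF. Another 130 exceeded it with IVF only and 24 with AI only, which left the 85. The median IFNT ratio was 1.399 among the 85 and 1.79 among the other 721 raised genes. Only 18 of the 85 (21.2%) reached a ratio of 1.5, against 525 (72.8%) of the others, and 3 of the 85 reached 2, against 300. The converse rule, with IFNT at most Control divided by 1.3 in at least 5 of 6 pairs and both conceptus means within the same limit below Control, held for 140 genes. The median ratio of all 13451 genes was 0.943 with IFNT, 0.923 with AI and 0.916 with IVF. Measured against the typical gene, the limits of the 2 rules therefore differ, and 140 and 85 are not counts at like limits. Genes just inside and outside the limits had nearly equal values: the lowest IFNT ratios inside were 1.301 and 1.303 and the highest outside were 1.298 and 1.298. The highest conceptus ratios inside were 1.148 and 1.147, and the lowest outside were 1.152 and 1.152.

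**Figure D1:**
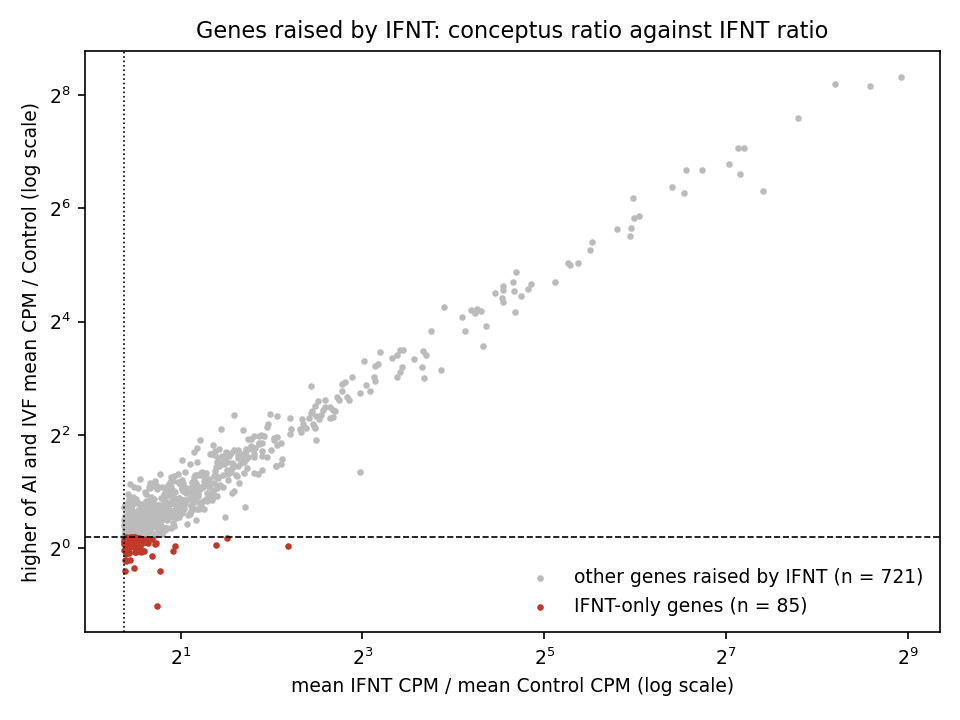
Each point is 1 of the 806 genes raised by IFNT, with the ratio of mean IFNT to mean Control CPM on the x axis and the higher of the AI and IVF ratios on the y axis, both on log scales. The dotted line marks 1.3 and the dashed line the conceptus limit, and the 85 IFNT-only genes (red) lie at the low corner of a continuous cloud formed with the 721 other raised genes (grey).

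Most IFNT-only genes were expressed at low to moderate levels. Their mean Control level ran from 1.08 to 233 CPM with a median of 8.58 CPM, where the median of all 13451 genes was 21.3 CPM and that of the other raised genes 13.5 CPM. There were 34 below 5 CPM, 11 from 5 to under 10 CPM, 30 from 10 to under 50 CPM and 10 at or above 50 CPM. With a conceptus their mean level stayed near Control: the median ratio to Control was 0.967 with AI and 1.03 with IVF. The AI mean was below Control in 48 of the 85 and the IVF mean in 32, and 22 lay below Control with both. With AI 19 genes were under 0.8 times Control, and with IVF 6. These counts used plain totals, and the matching shares of all genes are not given here. On that scale the median ratio of all 13451 genes was 0.923 with AI and 0.916 with IVF. Under TMM scaling, the log2 fold change of the averaged conceptus against Control was above 0 in 61 of the 85 and below 0 in 24.

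Summed over the IFNT-only genes, the share of a Control library's counts was 0.175% ± 0.0217 (SD, n = 6). It was 0.245% ± 0.0202 for IFNT (SD, n = 6). AI libraries gave 0.175% ± 0.0102 (SD, n = 4), and IVF libraries 0.180% ± 0.0152 (SD, n = 7). The lowest IFNT library, from uterus 10, held 0.215%, and the highest Control library, from uterus 2, held 0.200%. The sum in every IFNT library was therefore above that in every Control library, and above the highest conceptus library, IVF 5, at 0.205%. Within uteri the rise was uneven. Control and IFNT stood at 0.152% and 0.269% in uterus 3, but at 0.189% and 0.230% in uterus 5. These values describe genes that were chosen for this pattern.

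**Figure D2:**
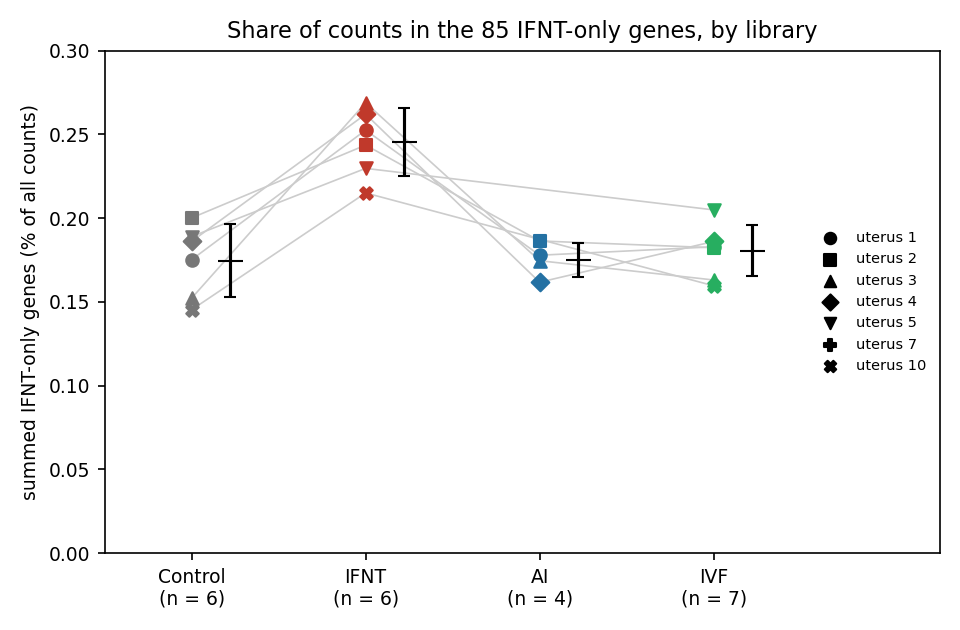
The y axis gives the summed counts of the 85 IFNT-only genes as a percentage of all counts in a library, for the 4 groups on the x axis; symbols mark the uterus, grey lines join libraries of a uterus, and black bars are the mean ± SD. The 6 IFNT libraries, from 0.215% to 0.269%, lie above all other libraries, of which the highest holds 0.205%.

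Read within uteri, on log2(CPM + 0.5), the median difference of the 85 genes between IFNT and Control was 0.44, 0.38, 0.72, 0.33, 0.31 and 0.51 for uteri 1, 2, 3, 4, 5 and 10. IFNT exceeded Control in 84 of the 85 genes in uterus 3 and in 84 in uterus 10, but in 66 in each of uteri 2 and 4. Of all 13451 genes, 46.0%, 43.3%, 49.2% and 33.2% did so in uteri 3, 10, 2 and 4. Only 22 genes were higher with IFNT in all 6 uteri. The other 63 missed 1 uterus, which was uterus 2 for 19 genes, uterus 4 for 19, uterus 5 for 16, uterus 1 for 7 and uteri 3 and 10 for 1 each. The IFNT library of uterus 2 was nevertheless the highest of the 6 IFNT libraries for 31 genes, more than any other IFNT library. The matching share of all genes is not given here, so this may hold for that library in general. Against Control of the same uterus, the median difference was -0.04 ± 0.17 with AI (SD, n = 4) and 0.02 ± 0.15 with IVF (SD, n = 6). Against IFNT of the same uterus it was -0.50 ± 0.02 with AI (SD, n = 4) and -0.42 ± 0.15 with IVF (SD, n = 6). Across the 10 conceptus libraries with an IFNT partner, 17 genes were below IFNT in all 10, and 62 in at least 8. The rule itself favours levels below IFNT, and the matching counts over all genes are not given here. For the other raised genes, the median difference from IFNT was -0.14 ± 0.28 with AI (SD, n = 4) and -0.18 ± 0.22 with IVF (SD, n = 6). Over all 13451 genes it was 0.02 ± 0.07 and -0.04 ± 0.07 in the same order.

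A single IFNT-only gene had all of its IFNT libraries above all of its Control libraries, or 1 of 85, against 2.14% of all 13451 genes and 286 of the other 721 raised genes. This gene, ENSBTAG00000020734, was singled out after its values were seen. Its Control libraries ran from 37.9 to 52.1 CPM with a median of 41.7 CPM, and its IFNT libraries from 52.1 to 72.3 CPM with a median of 62.6 CPM. The margin was thin, because IFNT and Control of uterus 2 stood at 52.1 CPM each, whereas uterus 3 went from 38.8 to 72.3 CPM. The AI libraries of uteri 1 to 4 held 38.5, 49.7, 42.1 and 37.04 CPM, and the IVF libraries ran from 37.4 to 55.4 CPM with a median of 45.9 CPM. AI lay below every IFNT library, while the IVF library of uterus 2 overlapped the lowest IFNT libraries.

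The gene with the highest IFNT ratio at a Control mean of at least 5 CPM was ENSBTAG00000002092, at 1.88 times Control. It ran from 2.17 to 22.5 CPM in Control with a median of 5.96 CPM, and from 2.58 to 44.2 CPM with IFNT with a median of 17.4 CPM. In uterus 4 it went from 22.5 CPM in Control to 20.1 CPM with IFNT, in uterus 5 from 2.17 to 2.58 CPM, and in uterus 1 from 4.52 to 15.3 CPM. With AI it stood at 1.98, 10.3, 13.3 and 13.0 CPM in uteri 1 to 4. With IVF it ran from 1.69 to 26.7 CPM with a median of 7.38 CPM. All 4 groups overlapped.

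Among genes with a Control mean of at least 5 CPM, ENSBTAG00000048257 had the next highest IFNT ratio, 1.67. Without that limit the highest IFNT ratio among the 85 was 4.53. ENSBTAG00000048257 also had the lowest ratio of the averaged conceptus to Control among the 85, 0.389. Its Control mean of 6.79 CPM ± 9.53 (SD, n = 6) rested on uterus 2, at 24.7 CPM, and uterus 10, at 10.6 CPM, since the Control median was 1.73 CPM. IFNT was at 25.8 CPM in uterus 2 and 32.6 CPM in uterus 10, and at most 4.69 CPM in the other uteri. With AI it stood at 1.64, 5.90, 2.29 and 3.56 CPM in uteri 1 to 4, and with IVF it ran from 0.783 to 3.30 CPM with a median of 1.66 CPM. The difference between uteri, present in Control and IFNT explants alike, was thus smaller in the conceptus explants, where uterus 2 held 5.90 CPM with AI and 3.30 CPM with IVF and uterus 10 held 2.34 CPM with IVF.

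ENSBTAG00000020141, with the second lowest conceptus ratio at 0.715, was likewise highest in uteri 2 and 10 among Control and among IFNT explants, at a lower level. It was at 4.37 CPM in uterus 2 and 2.52 CPM in uterus 10 without treatment, and between 0.062 and 0.925 CPM in the other 4 Control libraries. IFNT brought 5.94 CPM in uterus 2 and 5.24 CPM in uterus 10, and 0.310 to 1.75 CPM elsewhere. AI libraries held 0.377, 1.77, 0.572 and 1.34 CPM in uteri 1 to 4, and IVF libraries ran from 0.027 to 3.02 CPM with a median of 0.718 CPM. The lowest Control library held 2 reads of it and the lowest IVF library 1 read, so single explants are measured poorly. Its groups overlapped throughout.

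**Figure D3:**
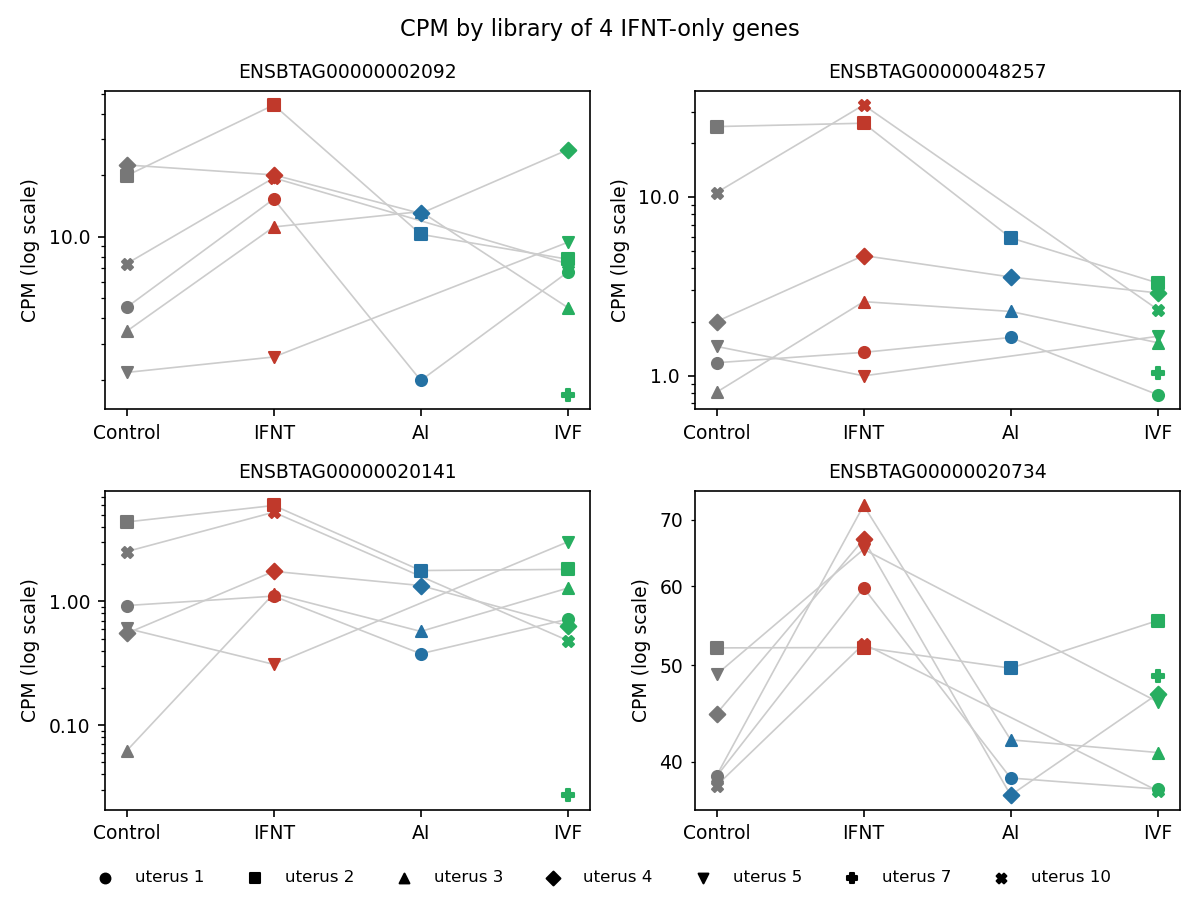
CPM of 4 IFNT-only genes on log scales (y axes) in the 4 groups (x axes), with 1 symbol per uterus and grey lines joining libraries of a uterus. ENSBTAG00000020734 separates IFNT from Control by a margin that vanishes in uterus 2, and the other 3 genes spread more between uteri than between groups.

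Because the genes were chosen on these libraries, the rule was also applied without all libraries of a uterus, and the genes it then gave were read in that uterus. The rule kept its limits, with IFNT above Control in at least 4 of the 5 remaining pairs. It gave between 85 and 173 genes, of which 48 to 67 were among the 85. Read in the uterus not used, their median IFNT difference from Control was 0.01, -0.10, 0.47, -0.05, 0.09 and 0.39 for uteri 1, 2, 3, 4, 5 and 10. The mean was 0.13 ± 0.24 (SD, n = 6), smaller than its spread between uteri, where the 85 genes read in the uteri that chose them gave 0.45 ± 0.15 (SD, n = 6). Over all genes with a Control mean of at least 1 CPM the median was -0.08 ± 0.07 (SD, n = 6), and relative to it the held-out genes lay at 0.22 ± 0.22 (SD, n = 6), above 0 in 5 of 6 uteri. Uteri 3 and 10 carried most of this difference. The share of genes above Control ran from 39.1% in uterus 2 to 79.6% in uterus 10, against 27.8% to 49.3% of all genes.

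The same reading kept the other raised genes well above Control. Chosen without the uterus, these 738 to 1005 genes differed from Control by 0.68 ± 0.19 with IFNT (SD, n = 6) and by 0.59 ± 0.16 with a conceptus (SD, n = 6), positive in 6 of 6 uteri both times.

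With a conceptus, the held-out IFNT-only genes differed from Control by -0.03, -0.12, 0.14, -0.21, 0.45 and 0.18 in uteri 1, 2, 3, 4, 5 and 10. The mean of 0.07 ± 0.24 (SD, n = 6) did not exceed its spread. Over all genes it was -0.10 ± 0.05 (SD, n = 6), and relative to it the held-out genes lay at 0.17 ± 0.25 (SD, n = 6), above 0 in 4 of 6 uteri, beside the 0.22 ± 0.22 of IFNT. AI alone gave -0.13 ± 0.24 (SD, n = 4) and IVF alone 0.12 ± 0.25 (SD, n = 6). The quantity the name rests on, conceptus minus IFNT, was -0.06 ± 0.26 (SD, n = 6) in held-out uteri. It was -0.43 ± 0.13 (SD, n = 6) for the 85 genes in the uteri that chose them, and -0.03 ± 0.09 (SD, n = 6) over all genes. The held-out value was negative in 5 of 6 uteri, uterus 5 being the exception at 0.40. For the other raised genes it was -0.10 ± 0.24 (SD, n = 6), and the difference between the 2 sets was smaller than the spread of either between uteri.

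**Figure D4:**
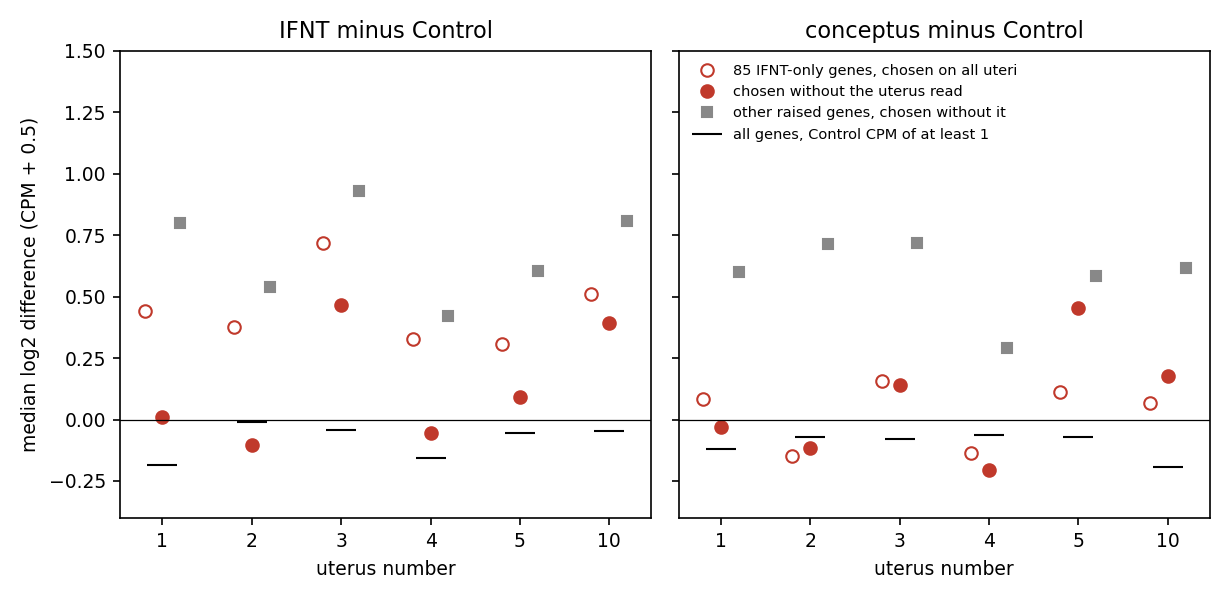
Median log2 difference of genes from Control of the same uterus (y axis, CPM + 0.5), for IFNT at left and the mean of AI and IVF at right (IVF alone in uteri 5 and 10), by uterus (x axis). Open red circles are the 85 genes in the uteri that chose them, filled red circles genes chosen without the uterus read, grey squares the other raised genes chosen likewise and black bars all genes; the filled circles average 0.13 at left and 0.07 at right, and each lies below the grey square of its uterus.

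In the edgeR quasi-likelihood test over 15227 genes, with Benjamini-Hochberg adjusted p under 0.05 as the call, all 85 genes were tested. Since the rule used these contrasts, the counts are descriptions. IFNT against Control called 5 of the 85, all higher, where 3.07% of all genes were called higher. With the uterus as a block, 27 were called higher, where the background was 4.62%, and they included the 5. The averaged conceptus against IFNT called 0 without the block, where 0% of all genes were called, and 32 of the 85 (37.6%) had an unadjusted p under 0.05, against 1524 of the 15227 genes. DESeq2 called 4 of the 85 (4.71%) and 0.576% of all genes there. With the block 15 were called, all lower, where 2.21% of all genes were called lower, and 9 of these 15 were among the 27. The averaged conceptus against Control called 0 of the 85 with or without the block, where 13.6% and 4.32% of all genes were called. An unadjusted p under 0.05 was found for 5 of the 85 with the block, against 27.4% of all genes, and for 2 without it, against 14.1%. DESeq2 called 1 with the block, against 14.8% of all genes, and 0 without it, against 4.83%. The median TMM-scaled log2 fold change of the 85 was 0.54 for IFNT against Control, 0.10 for the conceptus against Control and -0.47 for the conceptus against IFNT.

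The blocked counts moved with single libraries and uteri. Libraries are named by group and uterus. The counts over all genes moved as well. Between IFNT and Control the 27 of the 85 stood beside 704 of all genes called higher. They became 10 beside 563 without Control 3, 13 beside 612 without Control 10 and 13 beside 564 without Control 1. Without IFNT 3, IFNT 1 and IFNT 4 they became 11, 15 and 15, beside 553, 587 and 599. Between conceptus and IFNT the 15 of the 85 stood beside 336 of all genes called lower. They became 5, 9 and 7 without IFNT 3, IFNT 4 and AI 4, beside 56, 73 and 113. They became 25, 27, 24 and 23 without IFNT 2, IFNT 5, IVF 5 and IVF 10, beside 536, 429, 575 and 414. Without all libraries of uterus 3, or of uterus 4, the blocked fit called 0 of all genes between conceptus and IFNT, the 85 included, with 47 and 39 of the 85 at an unadjusted p under 0.05, beside 2492 and 2417 of all genes. Of the 5 genes called between IFNT and Control without the block, 2 met the rule whichever library was left out, and of the 27 called with it, 4.

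Membership moved with the libraries and the scaling. Only 6 of the 85 genes (7.06%) met the rule whichever of the 23 libraries was left out, and 9 (10.6%) whichever of the 6 paired uteri was left out. The IFNT ratio alone stayed at or above 1.3 without any of the 12 Control and IFNT libraries in 25 of the 85 (29.4%), against 551 (76.4%) of the other raised genes. The lowest count was 58 of the 85, without the Control library of uterus 3 and again without the IFNT library of uterus 2. The 85 lay closer to the limit of 1.3 than the other raised genes, with median ratios of 1.399 and 1.79. The shares of 29.4% and 76.4% were thus not compared at matched ratios. With TMM-scaled totals in the rule, 79 genes qualified, of which 38 were among the 85.

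The rule limited the AI mean and the IVF mean, each against Control, so the difference between AI and IVF is not independent of the choice of genes and is described only. No gene was called between AI and IVF by edgeR, with or without the block, among the 85 or among all 15227 genes (0%). An unadjusted p under 0.05 was found for 1 of the 85 (1.18%) and 2.25% of all genes without the block, and for 6 (7.06%) and 8.24% with it. DESeq2 called 0 of the 85 in both fits, and over all genes it called 0 without the block and 102 (0.549%) with it. Without IVF 2, the edgeR fit with the block called 12 of all genes and 0 of the 85. The mean was lower with AI than with IVF in 56 of the 85 (65.9%), against 46.7% of all genes with a Control mean of at least 1 CPM and 46.3% of the other raised genes. The limit acted unequally, in that 130 raised genes exceeded it with IVF only and 24 with AI only, and how this bears on that share was not tested. The log2 fold change of the 85, AI against IVF without the block, had a median of -0.09, where the median over all genes was -0.01. It ran from -0.48 at the 10th to 0.15 at the 90th percentile, with a median SE of 0.32.

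The rule did not read conceptus sex, but it limited the AI and IVF means of the same 11 libraries. The contrast of male and female is therefore not independent of the choice of genes and is described only. Of the 11 conceptuses 6 were male and 5 female, and sex followed origin in part, with 3 of the 4 AI conceptuses female and 5 of the 7 IVF conceptuses male. edgeR called 0 of the 85 and 0% of 15099 genes between male and female, with 2 of the 85 (2.35%) and 7.21% of all genes at an unadjusted p under 0.05. With the block it called 0 again, with 7 of the 85 (8.24%) and 11.6% of all genes under that p, and the smallest adjusted p among the 85 was 0.36. DESeq2 called 0 of the 85 with and without the block, and over all genes 46 (0.248%) with it and 0 without it. The median log2 fold change, male against female, was 0.02 without the block and 0.10 with it.

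Conceptuses secrete more interferon tau as they elongate. The rule did not read length either, but it limited the means of the same libraries, so the slope too is described only. A slope on log2 length over the 11 conceptus libraries gave 0 calls among the 85 and 0% of 14822 genes with or without the block. At an unadjusted p under 0.05 there were 1 of the 85 (1.18%) against 1.89% of all genes without the block, and 2 (2.35%) against 1.07% with it. DESeq2 without the block called 0 as well. The median slope of the 85 was -0.01 per doubling of length, from -0.35 at the 10th to 0.24 at the 90th percentile, with a median SE of 0.19. The blocked slope depended on uterus 2. Without AI 2 its median over the 85 was -0.21, 14 of the 85 had an unadjusted p under 0.05, and 181 of all genes were called. Without IVF 2 the median was -0.21 again, with 14 of the 85 under that p and 173 of all genes called. In both of these fits 0 of the 85 were called.

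**Figure D5:**
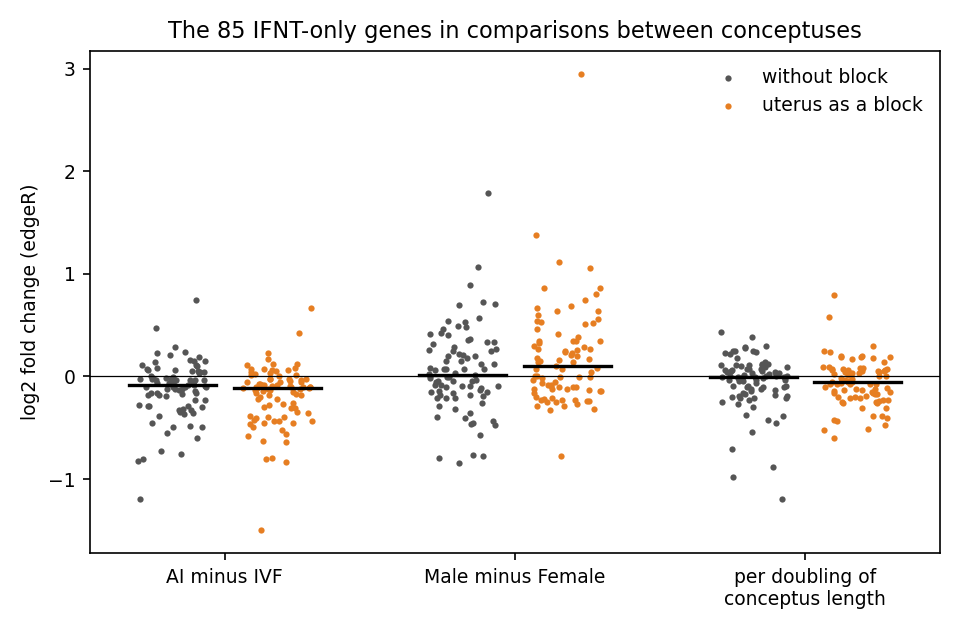
Each point is an IFNT-only gene, with its log2 fold change from edgeR on the y axis for 3 comparisons between conceptuses (x axis). Fits without the uterus block are grey and fits with it orange, and black lines are medians. The rule limited the AI and IVF means of these conceptus libraries, so none of the 3 comparisons is independent of it. The medians lie at -0.09 and -0.11 for AI minus IVF, 0.02 and 0.10 for male minus female and -0.01 and -0.06 per doubling of conceptus length, and none of the 85 was called in these fits.

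The IFNT-only genes varied among Control explants. Their coefficient of variation over the 6 Control libraries had a median of 36.3%, against 27.3% in the other raised genes and 24.0% in all genes with a Control mean of at least 1 CPM. The rule used the means of these Control libraries, so this spread is not independent of the choice of genes. Median Control levels also differed, at 8.58, 13.5 and 21.3 CPM in the same order, and spread was not compared at matched levels. Uterus held a median of 59.1% of the variance of log2 levels left within groups, against 53.9% in the other raised genes and 64.3% in all genes. It exceeded 50% in 55 of the 85, in 426 of the 721 other raised genes and in 10117 of all 13451 genes. Fitting uterus takes up part of the variance by itself, and the shares were not corrected for this. Across the 23 libraries, with group means removed, the mean correlation between pairs of the 85 was 0.07, against 0.12 among the other raised genes and 0.05 among all genes. Pairs with r over 0.5 made up 12.5% of pairs of the 85, 17.1% among the other raised genes and 11.9% among all genes. With uterus means removed as well, the mean correlations were 0.09, 0.13 and 0.03. The libraries share uteri and depth, and these correlations are descriptive.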

How the data were processed

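The deposited table holds counts, whole numbers of reads per Ensembl gene that are not normalized, 1 column per library. HISAT2, StringTie, edgeR and the build UMD3.1 appear in the submitters' processing notes without versions or roles; the counting tool, annotation release, strand setting and filters were not stated in the material used here, so overlapping or near-identical genes may share reads. Stranded TruSeq mRNA libraries were made, per the labels' protocols. No identifier matched the symbols of the ARS-UCD2.0 reference table (0 matches), so the 22 gene lists and the symbol part of the rule for named genes could not be applied. The text names the 2 IFNT-only genes with the highest IFNT ratio at a Control mean of at least 5 CPM, the 2 with the lowest conceptus ratio (1 gene is both) and 1 chosen after its values were seen.

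CPM uses the plain column total, and log2 values add 0.5 CPM. Tests were run over all genes in R 4.3.3 with edgeR 4.0.16 (filterByExpr, TMM, quasi-likelihood F test, 23 libraries in 4 groups; the 11 conceptus libraries for length) and Benjamini-Hochberg adjustment at 0.05, and with DESeq2 1.42.0 as an alternative. The edgeR fit of IFNT against Control without the block was tested on simulated counts that held no difference between uteri. The blocked fits, DESeq2, the other contrasts and the held-out reading were not tested in this way. Libraries with the same uterus number deviated together from their group means in each of 30 pairs (r from 0.17 to 0.78, median 0.56, against a median of -0.13 and a highest value of 0.57 between numbers), so the numbers pair the libraries and a fit with uterus as a block is given where it changes a count. Common dispersion corresponded to a coefficient of variation of 36.6% (23.9% with the block). Without the block, p-values treat explants of a uterus as independent, and they measure only the spread between these samples, which may be technical. The members, lists, rule and tests were chosen with earlier results of these data known.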

Additional observations from a re-analysis of the deposited data

Results flagged for a closer look

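ENSBTAG00000002092 stood at 26.7 CPM in the IVF library of uterus 4, far from the other 6 IVF libraries, which ran from 1.69 to 9.40 CPM. The Control library of that uterus was high as well, at 22.5 CPM. Chance marks about 1 in 20 groups in this way if the values are independent and normally distributed, which was not tested. This was 1 of 26 groups of values examined, and these groups share libraries.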

How the results depend on the processing

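The number of IFNT-only genes followed the limits of the rule: 208 at an IFNT ratio of 1.2, 18 at 1.5, 38 at a conceptus limit of 5% above Control, 152 at 25%, 22 with all 6 pairs and 51 at a Control mean of 5 CPM. It was 79 with TMM-scaled totals and 90 with means of log2 values, which shared 38 and 61 genes with the 85. Leaving out a library gave 77 to 166 genes, with 153, 129, 166, 129 and 133 without IFNT 1, 3, 4, 5 and 10, and leaving out a uterus gave 85 to 173, with 173 without uterus 1 and 167 without uterus 5. Without a Control or IFNT library, or a paired uterus, a pair dropped out, and the rule then asked for at least 4 of the 5 remaining pairs. These counts therefore changed with the condition on pairs as well as with the libraries. The 5 genes called between IFNT and Control became 27 with the uterus as a block, 37 in DESeq2 with the block and 3 with median-ratio size factors, beside 704, 830 and 441 of all genes called higher. They were 0 to 8 when a library or uterus was left out and 4 to 32 with the block as well. They were 3 without Control 1, 2 or 3, 1 without Control 10, IFNT 3 or IFNT 4, 2 without IFNT 1 and 8 without IFNT 2. The 0 called between conceptus and IFNT became 4 in DESeq2, 15 with the block and 33 in DESeq2 with the block, beside 43, 336 and 679 of all genes called lower, and 0 to 27 with the block and a library or uterus left out. Between conceptus and Control, DESeq2 with the block called 1 beside 2747 of all genes, and the block with a library left out called 0 to 1. Among the 85, the block changed no other count of calls. The cause of these shifts was not tested. The uterus numbers pair the libraries. AI against IVF, male against female and length kept 0 calls among the 85 under every alternative run, which for DESeq2 with the block leaves out length. Not set against all genes, the held-out IFNT difference lay between 0.10 and 0.19 and the held-out conceptus difference between 0.05 and 0.12. The alternatives were TMM-scaled totals, a pseudocount of 2 CPM, all remaining pairs, an IFNT ratio of 1.5 and, for the conceptus, IVF only.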
